A study of Mus musculus with 4 samples.

Results

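Sarm1, the 3 Nmnat genes and 6 genes of the DLK cascade were followed in dorsal root ganglion (DRG) neurons of mice after nerve injury. The 10 genes (Sarm1, Nmnat1, Nmnat2, Nmnat3, Map3k12, Map3k13, Map2k4, Map2k7, Mapk8ip3 and Mapk10) were taken by symbol, and all 10 were found among the 31053 genes of the matrices. Their transcripts were counted as unique molecular identifiers (UMIs) in single sorted cells.

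The 4 libraries came from PirtEGFPf mice on a C57BL/6 background, 7 to 8 weeks old, and are called Male-Sham and Female-Sham or, after injury, Male-CCI and Female-CCI. In every group the mice carried 1 Pirt allele in which a membrane-bound EGFP stands in for the Pirt coding sequence under the Pirt promoter, which is active in most DRG neurons, and GFP+ cells were sorted. Neurons without Pirt are mainly large NF200+ ones, so the sort can under-sample the NF-like classes described here. CCI is a chronic constriction injury, made here with loose ligatures around both sciatic nerves, and the sham groups had a sham operation. Each library pooled 20 L4-5 DRGs of 5 mice at day 7, so each surgery had 2 libraries, 1 of each sex, and p-values measure the spread between these pools. All mice of a litter got the same operation, so that surgery and litter cannot be told apart. The ganglia held neurons with and without a cut or squeezed axon. Neurons with Sprr1a, a gene induced in axotomised neurons, above 1 on the natural-log normalized scale were taken as injured (Sprr1a+), and the others as Sprr1a-.

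SARM1 is an enzyme that consumes NAD+ when it is active and drives the self-destruction of a cut axon. The 3 NMNAT enzymes make NAD+ in the nucleus (NMNAT1), in the Golgi and axon (NMNAT2) and in mitochondria (NMNAT3), and NMNAT2, a short-lived protein carried down the axon, keeps SARM1 inactive. DLK (Map3k12) and its relative LZK (Map3k13) are kinases that sense axon damage; they act through MKK4 (Map2k4) and MKK7 (Map2k7) on JNK3 (Mapk10), with JIP3 (Mapk8ip3) as the scaffold that links the cascade to motor proteins, and the signal that returns to the nucleus induces injury genes such as Jun and Atf3.

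After filtering, the libraries held 3281, 5398, 2817 and 3637 neurons (sham males, sham females, CCI males and CCI females, the order of every series of 4 values here), with median UMIs per neuron of 45172, 32490, 56457 and 43527. Of these, 42, 144, 1467 and 1789 were Sprr1a+, or 1.28%, 2.67%, 52.1% and 49.2%. Between 215 and 513 cell barcodes were shared by pairs of libraries as deposited, and 0 to 6 after filtering. The neurons expressed the neuronal markers (4047 to 5713 CPM, UMIs of a gene per 1000000 UMIs of the summed cells, added over 5 genes), with sums of 5.36 to 6.24 CPM for Schwann cell, 2.46 to 7.72 for immune, 4.39 to 6.57 for fibroblast and 58.5 to 69.7 for endothelial markers. Satellite glial cell (SGC) markers were higher, at 1343 and 1660 CPM in the sham libraries and 982 and 1161 in the CCI libraries, and they are given beside the results they move with. Clusters were named by fixed markers as NP1- to NP3-like (non-peptidergic) and PEP1- to PEP5-like (peptidergic, with PEP3 and PEP4 as 1 class). Others were NF1- and NF2-like, cLTMR-like (C-fibre low-threshold mechanoreceptors) and CCI-ind-like (marked by injury-induced genes). The study gives its NF1 and NF2 clusters as Nefh+ Aβ low-threshold mechanoreceptors, and Nefh was not among the fixed markers here. Of the fixed NF2 markers, Ntrk2 was at 4.44 and 6.72 CPM in sham NF2-like neurons, below all sham neurons (60.5 and 52.6). Sema5a, Ddr2, Fgf9, Htr3a, Fam19a1 and Prokr2 were above all sham neurons there. The 263 neurons in clusters without a name were kept in the sums over all neurons only.

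In the GRCm38 annotation, Sarm1 lies at chr11:78472330-78497754 on the minus strand, Nmnat1 at chr4:149467572-149485202 (minus), Nmnat2 at chr1:152954993-153119261 (plus) and Nmnat3 at chr9:98287435-98420438 (plus). Map3k12 lies at chr15:102497646-102517064 (minus) and Map3k13 at chr16:21794346-21933439 (plus). Map2k4 lies at chr11:65688243-65788297 (minus), Map2k7 at chr8:4238740-4247897 (plus), Mapk8ip3 at chr17:24892153-24936977 (minus) and Mapk10 at chr5:102907948-103211334 (minus). Each is a protein-coding gene. Map3k13, Map2k7 and Mapk8ip3 each overlap another annotated gene on the same strand (1300002E11Rik, Gm49320 and Eme2), so reads in the shared stretches cannot be assigned by position, and Nmnat1, Nmnat2, Map3k12, Map3k13 and Mapk8ip3 overlap genes on the opposite strand.

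The promoters of Sarm1 and Mapk10 are shown because these members differed most in level between classes of sham neurons among those above 10 CPM on average (7.32-fold and 4.92-fold between the highest and the lowest class), and because Mapk10 was lower after injury in each of the 4 classes tested. Both are the 250 bases before the RefSeq transcription start (GRCm38.p6), 5′ to 3′ on the gene's strand. Capitals mark the GC box in Sarm1 (chr11:78497755-78498004, minus strand) and the cyclic AMP response element (CRE) in Mapk10 (chr5:103211335-103211584, minus strand).
Sarm1: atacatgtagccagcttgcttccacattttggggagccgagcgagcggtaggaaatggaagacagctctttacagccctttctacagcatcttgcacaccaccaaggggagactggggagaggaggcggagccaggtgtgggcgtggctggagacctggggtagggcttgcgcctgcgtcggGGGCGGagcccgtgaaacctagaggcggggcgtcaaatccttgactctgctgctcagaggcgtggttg
Mapk10: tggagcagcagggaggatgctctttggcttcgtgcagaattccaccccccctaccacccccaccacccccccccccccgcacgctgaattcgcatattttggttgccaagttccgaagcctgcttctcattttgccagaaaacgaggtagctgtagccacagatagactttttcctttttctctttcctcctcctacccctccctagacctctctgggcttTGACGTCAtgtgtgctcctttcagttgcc
The match begins 68 bases before the start in Sarm1 and 29 bases before it in Mapk10. Searched on both strands, the CRE word TGACGTCA was found in 1.55% of 32851 promoters of this length and in 1 of the 15 promoters annotated for the members, that of Mapk10. The GC box GGGCGG was found in 32.7% of all promoters and in 7 of the 15, those of Sarm1, Nmnat1, Nmnat3, Map3k12 and Mapk8ip3. Both Nmnat1 promoters are counted, but they overlap, and their GC boxes (110 and 148 bases before the start) are the same site. The AP-1 words TGAGTCA and TGACTCA were found in 4.46% of all promoters and in 0 of the 15, and the TATA word TATAAA in 12.4% and in 2 of the 15 (Map2k7 and a second Mapk10 promoter). None of these words overlaps another in a single site, and a match describes letters only.

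In sham neurons, Sarm1 was highest in the NF-like classes. The first value of each pair is Male-Sham and the second Female-Sham, in CPM of the UMIs summed over a class. Sarm1 reached 39.0 and 45.3 CPM in NF2-like and 24.3 and 25.7 in NF1-like neurons. It was intermediate in PEP5-like (16.4 and 16.2), PEP2-like (14.4 and 12.5), NP2-like (11.3 and 13.2), cLTMR-like (10.2 and 9.65) and PEP3/4-like neurons (8.47 and 10.1). The lowest levels were in PEP1-like (5.80 and 7.21), NP3-like (5.70 and 6.61) and NP1-like neurons (4.74 and 6.78). The ranges of neighbouring classes overlapped in 4 of the 9 steps of this order, among them the 2 steps that separate PEP1-, NP3- and NP1-like neurons, which therefore did not differ beyond their spread. SGC-like cells had 1, 1, 0 and 0 Sarm1 UMIs, so that the neuronal values stand clear of that background, although those cells held a median of only 4188 to 5160 UMIs.

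The NAD+ synthesising partners were distributed differently. Nmnat2 varied least after Map2k7, by 1.73-fold, from 81.7 and 76.8 CPM in PEP2-like and 76.3 and 70.5 in NF1-like neurons down to 46.4 and 45.4 in PEP5-like neurons. NF2-like neurons, which had the highest Sarm1, were among the lowest for Nmnat2 (55.2 and 45.5). Nmnat1 was highest in NF1-like neurons (10.5 and 8.34) and lowest in NP3-like neurons (2.09 and 1.34). Nmnat3 was close to the detection limit, with at most 0.455 CPM in any class and library, and it had no UMI in sham NF2-, NP1-, NP3- and cLTMR-like neurons.

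Of the kinases, Map3k12 ranged 2.18-fold, from 46.5 and 45.9 CPM in NF2-like to 20.3 and 22.1 in NP3-like neurons. Map3k13 stood out in NF1-like neurons (18.4 and 21.2), above the next class, PEP2-like (8.52 and 7.54), and neighbouring classes overlapped in 7 of the 9 steps of its order. Map2k4 was also highest in NF1-like neurons (133 and 134) and lowest in NP3-like neurons (52.1 and 51.1). Mapk10 was highest in NF1-like (225 and 233) and NF2-like (211 and 212) neurons, with PEP1-like next (131 and 128) and cLTMR-like neurons lowest (46.2 and 46.9). Map2k7 (46.0 and 40.7) and Mapk8ip3 (234 and 219) were highest in NF2-like neurons, and both were lowest in cLTMR-like neurons. Leaving Nmnat3 aside, 8 of the 9 members had their highest level in an NF-like class, Nmnat2 being the exception.

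**Figure D1:**
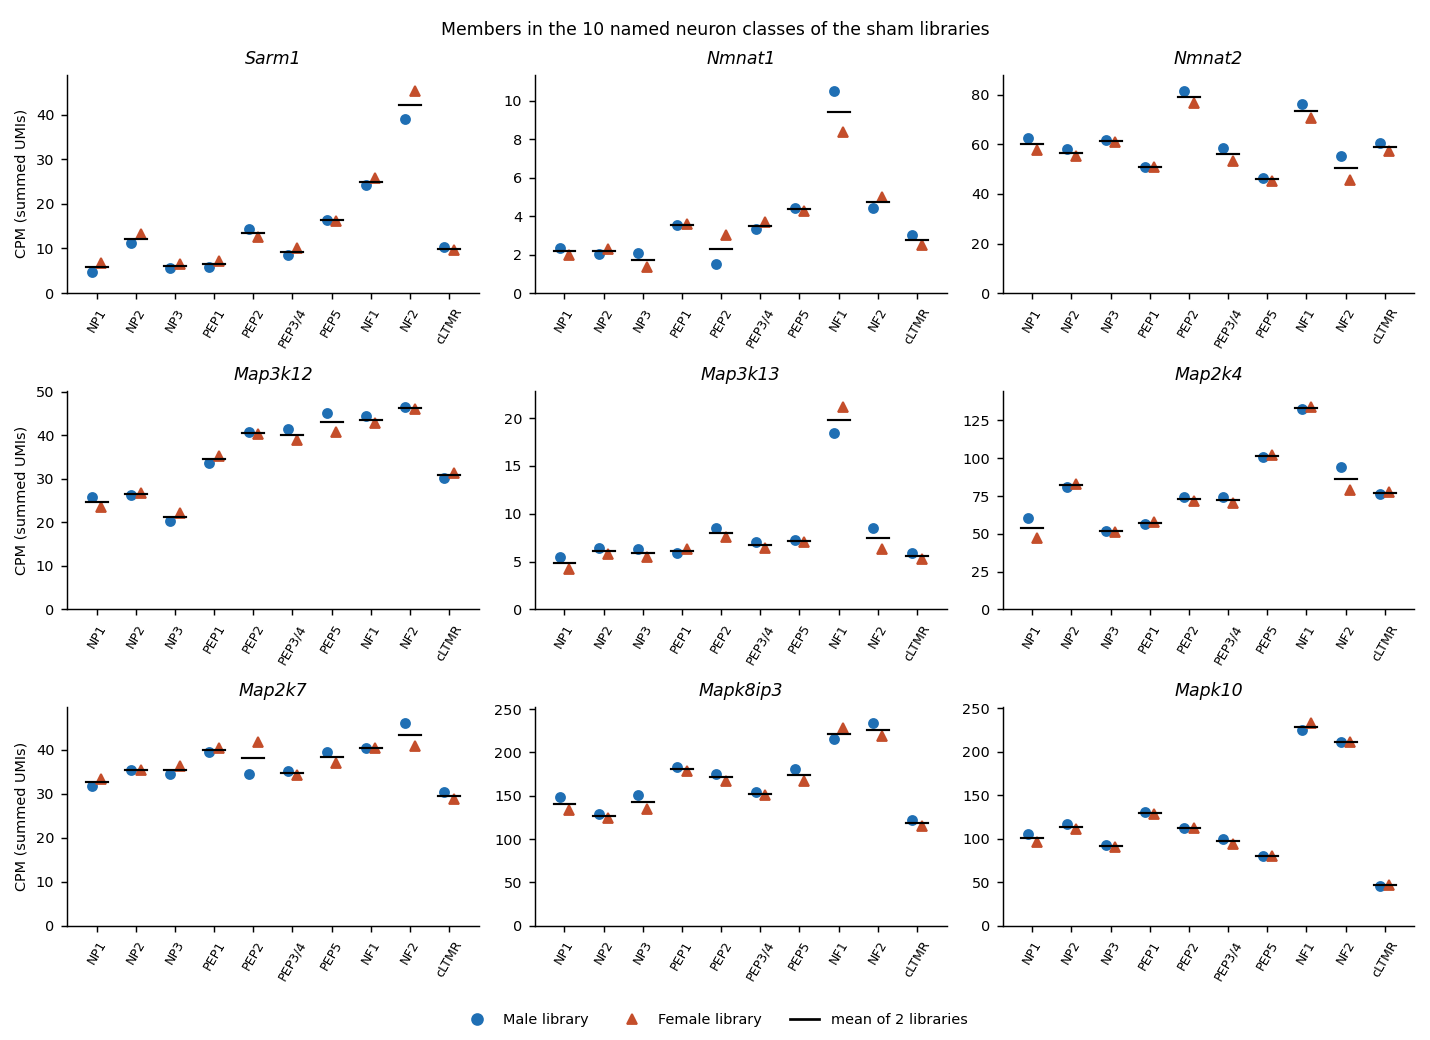
Level of 9 members (CPM of summed UMIs, linear axes from 0) in the 10 named neuron classes of the sham libraries, with circles for Male-Sham, triangles for Female-Sham and a line at the mean of the 2 libraries. Sarm1 peaks in NF2-like and Mapk10 in NF1-like and NF2-like neurons, while Nmnat2 is highest in PEP2-like neurons and Map2k7 is nearly level.

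NF1- and NF2-like neurons together were tested against the other 8 named classes within the sham libraries, with the library as a block. A gene was called changed at an adjusted p (edgeR quasi-likelihood test, Benjamini-Hochberg over all genes tested) below 0.05 and an absolute log2 difference above 0.5. Of the 9 members that could be tested, 6 were higher in NF-like neurons and 0 lower, where 22.7% of 15838 genes were called higher and 46.3% in either direction. Sarm1 was 28.8 and 32.3 CPM in NF-like neurons and 9.32 and 10.3 in the others, a log2 difference of 1.67 ± 0.07 (SE, n = 2 libraries, adjusted p = 1.74e-08 by edgeR). The other 5 were Nmnat1 (1.47 ± 0.14), Map3k13 (1.35 ± 0.09), Mapk10 (1.21 ± 0.04), Map2k4 (0.75 ± 0.04) and Mapk8ip3 (0.61 ± 0.04). Map3k12 (0.46), Map2k7 (0.25) and Nmnat2 (0.24) differed by less than the fold limit, and Nmnat3 had too few UMIs. The median difference was 0.75 over the members and -0.04 over all genes. The classes were made from the same cells, although Mapk10 was the only member among the 3000 genes used for clustering, and with the pathway genes left out of the clustering the count was again 6. The summed SGC markers were lower in NF-like (185 and 271 CPM) than in other neurons (1451 and 1771), and their part in the differences was not tested.

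Over all neurons, 1 of the 10 members, Nmnat3, was called after CCI (higher), where 27.8% of 17233 genes were called and 15.2% were called higher. Whether the share of members differs from that of all genes was not tested. All 10 members had sham and CCI libraries that did not overlap, as had 80.2% of all genes. Sarm1 was at 11.8 and 12.3 CPM in the sham libraries and 15.3 and 14.4 in the CCI libraries, both CCI values being above both sham values. The log2 change was 0.36 ± 0.06 (SE, n = 2 and 2, adjusted p = 0.00313 by edgeR), below the fold limit. Log2 changes were computed with TMM scaling, and the CPM values are scaled by total UMIs only, so that a log2 ratio of the CPM values can be lower than the log2 change.

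The axonal survival factor had a difference of the other sign. Nmnat2 was at 59.1 and 55.7 CPM in sham and 46.8 and 46.1 in CCI, both CCI libraries being lower, with a log2 change of -0.25 ± 0.04 (adjusted p = 0.0024 by edgeR). Nmnat1, the nuclear enzyme, was at 3.53 and 3.37 against 4.31 and 3.88 CPM (0.31 ± 0.09, adjusted p = 0.0303). Neither passed the fold limit.

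The kinases all had small differences below 0. Mapk10 (JNK3) was at 114 and 106 CPM in sham and 82.7 and 82.9 in CCI, a log2 change of -0.35 ± 0.05 (adjusted p = 0.00135 by edgeR). Map3k13 (-0.31), Map2k4 (-0.27), Map2k7 (-0.21) and Map3k12 (-0.14) were lower by less, the last with an adjusted p of 0.0597. The scaffold Mapk8ip3 differed least, at 160.0 and 154 against 161 and 162 CPM (0.10 ± 0.05, adjusted p = 0.128). The median over the members was -0.17, and over all genes -0.01. The sums over all neurons also follow the makeup of the library, since CCI-ind-like neurons numbered 44, 139, 1268 and 1599.

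**Figure D2:**
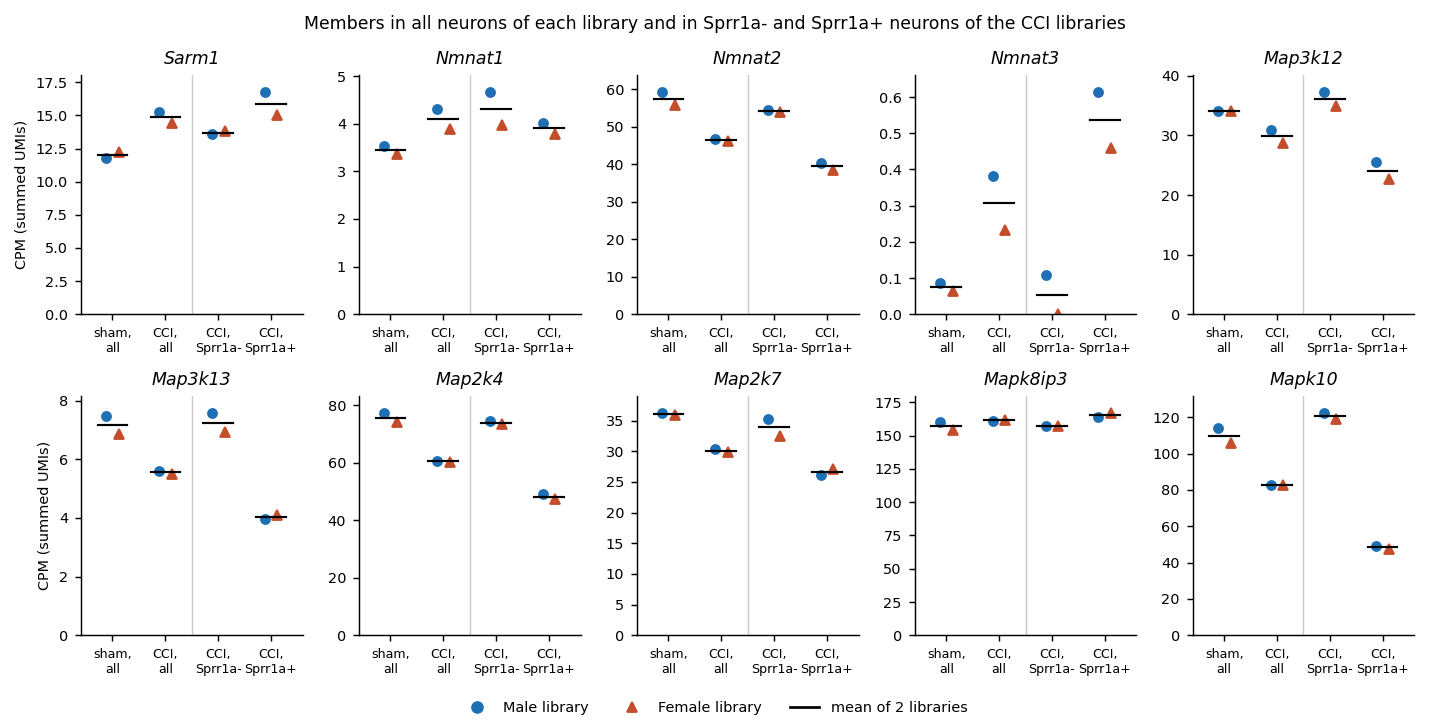
Level of the 10 members (CPM of summed UMIs, linear axes from 0) in all neurons of the sham and CCI libraries and, right of the grey line, in Sprr1a- and Sprr1a+ neurons of the CCI libraries, with circles for male, triangles for female libraries and lines at means of 2. Mapk10 is lower in Sprr1a+ than in Sprr1a- neurons (48.4 against 120.5 CPM on average), and Nmnat3 is below 1 CPM throughout.

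Nmnat3, the mitochondrial isoform, rose from a very low level. It had 14, 12, 62 and 37 UMIs over all neurons, or 0.0863, 0.0633, 0.381 and 0.231 CPM, with exact Poisson 95% intervals of 0.0472 to 0.145, 0.0327 to 0.111, 0.292 to 0.489 and 0.163 to 0.319, which cover counting error only. Both CCI libraries were above both sham libraries, and the intervals of the 2 surgeries did not overlap. The log2 change was 2.09 ± 0.37 (n = 2 and 2, adjusted p = 0.00309 by edgeR). The UMIs lay in 13, 12, 61 and 37 neurons, with at most 2 in any one of them. In the CCI libraries, 53 of the 61 and all 37 of the 37 were Sprr1a+, and 44 and 35 were CCI-ind-like. SGC-like cells had 3.58, 5.81, 4.30 and 5.39 CPM of Nmnat3 (3 or 4 UMIs in each library), more than neurons, while the SGC marker sum of the neurons was lower in CCI (982 and 1161 CPM) than in sham (1343 and 1660).

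Within the CCI libraries, Sprr1a+ neurons were set against Sprr1a- neurons from the same pools of mice. The 2 sides differed in makeup. CCI-ind-like neurons were 1227 of 1467 and 1525 of 1789 Sprr1a+ neurons, and 41 of 1350 and 74 of 1848 Sprr1a- neurons (male, then female). Class makeup and Sprr1a state therefore cannot be told apart in these differences. Mapk10 and Map3k13 were lower and Nmnat3 higher in Sprr1a+ neurons, and 7 members were not called, where 45.6% of 16241 genes were called (20.9% higher and 24.7% lower). Mapk10 was at 49.2 and 47.6 CPM in Sprr1a+ neurons and 122 and 119 in Sprr1a- neurons (male, then female), with no overlap. Its log2 difference of -1.14 ± 0.03 (n = 2 pairs, adjusted p = 3.48e-10 by edgeR) was the lowest of any member here. Map3k13 was at 3.96 and 4.11 against 7.57 and 6.92 CPM (-0.67 ± 0.09, adjusted p = 5.45e-05). Nmnat3 had 54 and 37 UMIs in Sprr1a+ against 8 and 0 in Sprr1a- neurons (0.613 and 0.459 against 0.107 and 0 CPM). Only its Sprr1a+ sums met the filter on low counts, so its call cannot serve as a test and is a description. The fitted log2 difference of 3.51 ± 0.62 depends on the prior count in the female pair. It was 2.67 from the male pair and 8.29 from the female pair alone, as values with no test.

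The other members differed by less than the fold limit. Map2k4 (49.2 and 47.3 against 74.4 and 73.4 CPM) and Map3k12 (25.6 and 22.6 against 37.2 and 35.0) had log2 differences of -0.44 and -0.41 with TMM scaling. Scaling by total UMIs put the median of all genes at -0.17 in this comparison, against -0.00 with TMM, and both members past the limit, at -0.62 and -0.58. Of all genes called, 45.9% were higher with TMM and 34.0% with total UMIs. Nmnat2 was at 40.4 and 38.5 against 54.4 and 53.8 CPM (-0.28 ± 0.04), and Sarm1 at 16.8 and 15.0 against 13.6 and 13.8 (0.39 ± 0.06). Mapk8ip3 (0.25), Map2k7 (-0.17) and Nmnat1 (0.03, or -0.14 with total UMI scaling) completed the list. The SGC markers summed to 847 and 1125 CPM in Sprr1a+ and 1141 and 1197 CPM in Sprr1a- neurons, the immune markers to 6.85 and 9.40 against 4.50 and 3.48 and the endothelial markers, mostly Egfl7, to 51.7 and 54.8 against 66.6 and 71.3.

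The injured state was then compared with the sham state inside single classes, namely NP1-, NF1-, NF2- and PEP5-like neurons, in which at least 10 Sprr1a+ neurons of each CCI library could be set against the Sprr1a- neurons of each sham library. Mapk10 was lower in all 4 classes, while Sarm1 moved in opposite directions in NP1- and NF2-like neurons.

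In NP1-like neurons (itch-related neurons, marked in sham by Nppb and Sst; 83, 71, 98 and 113 cells), 3 of 9 members tested were called, where 41.6% of 11378 genes were called. Sarm1 rose from 4.67 and 5.72 CPM in sham to 9.60 and 12.2 in Sprr1a+ CCI neurons, on 18, 16, 67 and 77 UMIs. Both CCI libraries were above both sham libraries, with a log2 change of 1.14 ± 0.29 (n = 2 and 2, adjusted p = 0.000545 by edgeR). Nmnat2 fell from 64.1 and 63.3 to 35.0 and 34.2 CPM (-0.82 ± 0.12, adjusted p = 3.88e-08), and Mapk10 from 111 and 108 to 54.7 and 45.1 CPM (-1.07 ± 0.11, adjusted p = 8.25e-13). These 3 calls were kept when any library was left out. Map2k4 had a log2 change of -0.42 with all libraries, and passed the limit without Female-Sham (-0.55) or without Female-CCI (-0.52). The cells of the 2 sides lay in different clusters. Of the sham cells, 82 of 83 and 63 of 71 were in a cluster led by Sst and Nppb, and of the injured cells 97 of 98 and 111 of 113 were in a cluster led by Cd207, Cavin1 and Cmtm7, which had Htr1f and Il31ra of the NP1 markers among its 10 leading genes. Nppb was at 1314 and 1146 CPM in the sham cells and 143 and 124 in the injured cells, and Sst at 1196 and 1291 against 0 and 2.54. At resolution 0.4 all these cells formed 1 cluster. The cluster of the injured cells held 1 and 8 of the sham cells, too few for a test within it, so that cluster and state cannot be told apart in these 3 changes.

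Markers of other cell types moved with the NP1-like changes. The SGC marker sum was 411, 747, 491 and 510 CPM. The endothelial sum (5 genes) was 0.778 and 4.29 CPM in sham and 35.1 and 37.8 in injured NP1-like cells, of which Egfl7 made up 34.0 and 36.7, while Cldn5 and Kdr were at 0 in all 4 libraries. The Schwann sum (5 genes) was 23.6 and 19.0 CPM in sham and 7.16 and 6.52 in injured cells, mostly of Drp2. The immune and fibroblast sums were at most 7.59 CPM. The part of these markers in the changes was not tested.

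In NF1-like neurons (148, 165, 55 and 32 cells), 7 of 9 members tested fell and 0 rose, where 45.5% of 12104 genes were called and 23.8% fell. Both upstream kinases were among them. Map3k12 (DLK) fell from 44.5 and 42.7 CPM to 15.5 and 11.8 (-1.27 ± 0.16, n = 2 and 2, adjusted p = 1.72e-05 by edgeR). Map3k13 (LZK), which NF1-like neurons of sham expressed most, fell from 18.4 and 21.2 to 4.22 and 2.94 CPM (-2.02 ± 0.25, adjusted p = 1.51e-05), the CCI values resting on 19 and 5 UMIs. In each of these genes both CCI libraries were far below both sham libraries.

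Further down the cascade of NF1-like neurons, Mapk10 fell from 225 and 233 to 67.7 and 74.6 CPM (-1.38 ± 0.09), Map2k4 from 133 and 134 to 57.7 and 66.4 (-0.80 ± 0.10) and Map2k7 from 40.4 and 40.5 to 20.4 and 22.9 (-0.60 ± 0.14). Nmnat2 fell from 76.3 and 70.5 to 27.7 and 28.8 CPM (-1.06 ± 0.12, adjusted p = 7.3e-06 by edgeR). Sarm1 was at 24.3 and 25.7 CPM in sham and 18 and 23.5 in CCI, with a log2 change of -0.00 ± 0.16 (adjusted p = 0.985), and the female CCI value lay close to both sham values. Nmnat1 fell by 1.00 on the log2 scale (adjusted p = 0.0176), but was not called without Male-Sham (-0.80, adjusted p = 0.136) or without Male-CCI (-0.55, adjusted p = 0.377). Total UMI scaling put the median of all genes at -0.39 here, Sarm1 at -0.33 (not called) and Mapk8ip3 (-0.40 with TMM) past the limit at -0.73. Of all genes called, 47.7% were higher with TMM and 25.8% with total UMIs. The median over the members was -1.0, against -0.06 over all genes. The SGC marker sum was 119, 226, 336 and 238 CPM. Of the NF1 markers, Kcns1 was at 101 and 93.5 CPM in the sham cells and 3.33 and 6.46 in the injured cells. Pvalb was at 950 and 695 against 54.8 and 158, and Slc17a7, Hapln4, Runx3 and Ntng1 were also lower. Gabrg1 was higher in the injured cells (39.9 and 35.9 against 135 and 112). NF1-like neurons formed 2 clusters, and the one led by Pvalb held 54 of 148 and 45 of 165 of the sham cells but 2 of 55 and 2 of 32 of the injured cells. In the other, larger cluster alone, a comparison added after these counts were seen, 7 members were again called (5566 genes), with Map3k13 at -2.38, Mapk10 at -1.54 and Sarm1 at -0.17 (adjusted p = 0.397 by edgeR).

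In NF2-like neurons (77, 94, 82 and 85 cells), 4 members fell and 0 rose of 9 tested, where 43.7% of 11778 genes were called and 22.4% fell. Sarm1 fell here, from 39.0 and 45.3 CPM to 20.0 and 21.2 (-0.80 ± 0.14, n = 2 and 2, adjusted p = 0.000706 by edgeR). Both CCI libraries were below both sham libraries. Nmnat2 was at 55.2 and 45.5 against 41.1 and 43.9 CPM (-0.02 ± 0.12, adjusted p = 0.916). Mapk10 fell from 211 and 212 to 83.2 and 84.5 CPM (-1.10 ± 0.09, adjusted p = 5.32e-06), and Map2k7 from 46.0 and 40.7 to 21.3 and 23.3 (-0.73 ± 0.13). Map3k12 fell from 46.5 and 45.9 to 22.0 and 29.8 CPM (-0.63 ± 0.14), which was -0.44 and not called without Male-CCI, while Map3k13 (-0.43) was -0.84 and called without Female-CCI and -0.02 without Male-CCI. Total UMI scaling put the median of all genes at -0.24 (-0.01 with TMM), Map2k4 (-0.38 with TMM) at -0.61 and Mapk8ip3 (-0.29 with TMM) at -0.52, both then called. Of all genes called, 48.8% were higher with TMM and 32.0% with total UMIs. The SGC marker sum was 333, 359, 335 and 759 CPM, and the endothelial sum, nearly all Egfl7, was 117, 130.3, 94.6 and 82.6 CPM. Of the NF2 markers, Htr3a was at 199 and 188 CPM in the sham cells and 1.45 and 0.416 in the injured cells. Sema5a was at 235 and 236 against 49.9 and 57.0, and Fgf9 and Fam19a1 were also lower. Ddr2 (33.8 and 45.9 against 49.7 and 70.6) and Prokr2 (39.0 and 51.1 against 52.9 and 63.3) were not lower.

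In PEP5-like neurons (cold-sensing neurons, marked in sham by Trpm8; taken from the coarser clustering; 300, 532, 149 and 160 cells), 3 members fell and 0 rose of 9 tested, where 46.4% of 12587 genes were called and 24% fell. Map2k4 fell from 101 and 102 CPM to 44.4 and 41.5 (-0.94 ± 0.09, n = 2 and 2, adjusted p = 3.87e-11 by edgeR), with no overlap. Map3k13 fell from 7.26 and 7.03 to 3.64 and 3.27 CPM (-0.74 ± 0.25, adjusted p = 0.0114), and Mapk10 from 79.9 and 80.2 to 43.4 and 47.9 (-0.52 ± 0.09, adjusted p = 4.69e-06). Sarm1 was at 16.5 and 16.3 against 18.2 and 15.0 CPM (0.32 ± 0.14, adjusted p = 0.0541).

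The injured PEP5-like cells did not carry that name in the main clustering. There, 145 of the 149 and 149 of the 160 were in a CCI-ind-like cluster led by Ankrd1, Arg2 and Prss12, which held 1 and 5 of the sham cells, and 4 and 11 were PEP5-like. Trpm8 was at 115 and 85.9 CPM in the sham cells and 1.12 and 1.80 in the injured cells, below all neurons of the CCI libraries (4.30 and 4.43). Hpca, another PEP5 marker, was at 573 and 535 against 10.5 and 14.1, also below all CCI neurons (20.1 and 19.8). Foxp2 was at 169 and 167 against 47.2 and 38.6, above all CCI neurons (8.62 and 8.12). Kcnk9, Gpr26, Cdh8 and Ndst4 were also lower in the injured than in the sham cells and above all CCI neurons, Ndst4 only slightly (8.26 and 5.39 against 6.57 and 5.05). In the coarser clustering, which the test used, 145 of the 149 and 151 of the 160 injured cells were in a single cluster. That cluster held 57 of the 300 and 108 of the 532 sham cells, and another held 243 and 424. The falls were therefore measured mostly between different clusters. A comparison within the shared cluster was not made, so cluster and state were not separated in these falls.

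Some PEP5-like calls turned on single libraries. Map3k13 was not called without Female-CCI (-0.67, adjusted p = 0.0701 by edgeR), and Mapk10 lay just under the limit without Female-Sham (-0.50) and without Male-CCI (-0.44). Map2k7 (-0.42) passed it without Female-CCI (-0.52). Total UMI scaling put the median of all genes at -0.32 (-0.02 with TMM) and called 6 members, with Nmnat2 at -0.69, Map3k12 at -0.59 and Map2k7 at -0.72 added, and turned Mapk8ip3 from 0.13 to -0.17 and Nmnat1 from 0.28 to -0.010. Of all genes called, 48.3% were higher with TMM and 27.8% with total UMIs. The SGC marker sum was 3732 and 4219 CPM in sham and 1294 and 1748 in Sprr1a+ CCI neurons, while the immune sum was 2.5 and 1.02 against 4.06 and 9.31 CPM and the Schwann sum 13.3 and 11.3 against 8.54 and 8.33. In the SGC-like cells of the sham libraries, Map2k4 was at 17.9 and 13.1 CPM and Mapk10 at 6.27 and 7.27. Map3k13 was at 2.69 and 1.45 CPM there, on 3 and 1 UMIs. The part of these markers in the falls was not tested.

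**Figure D3:**
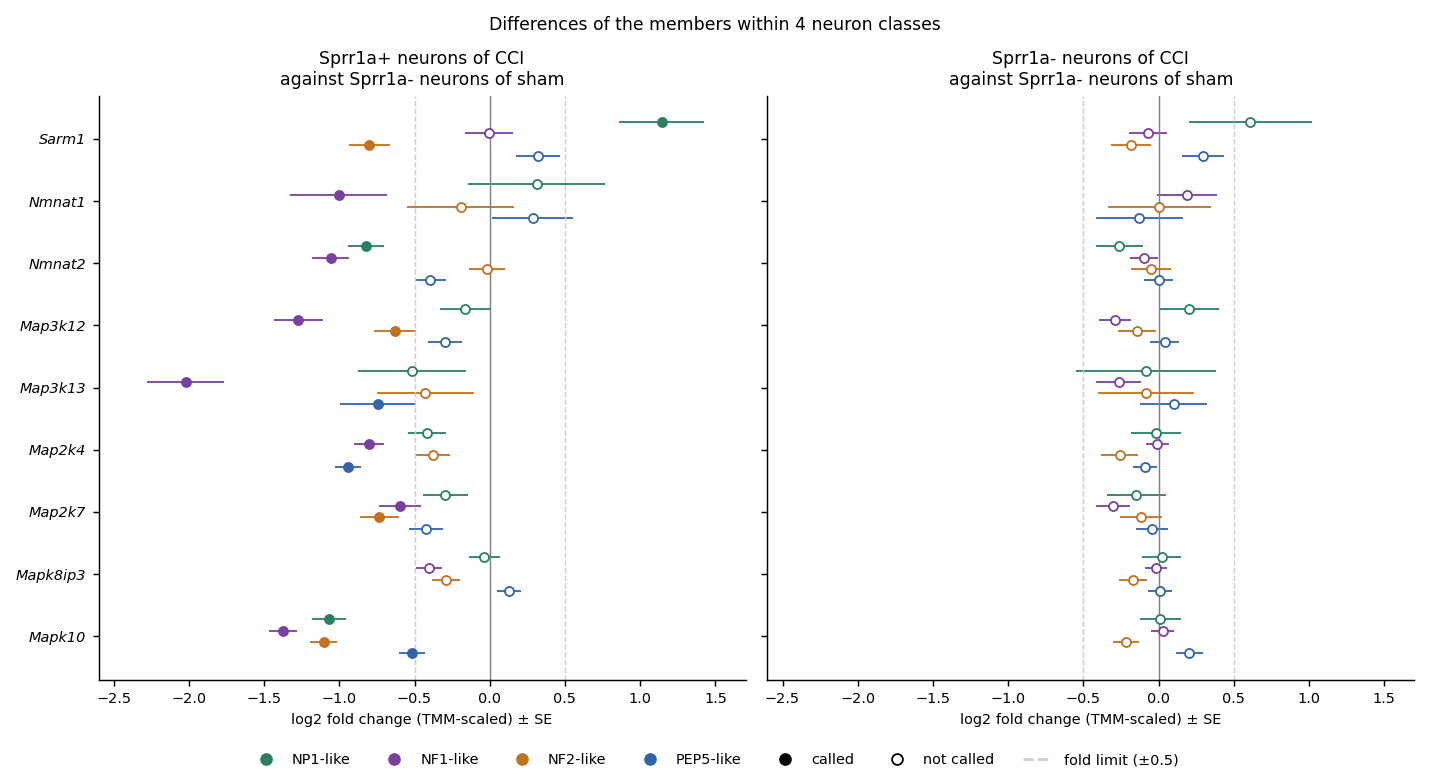
Log2 fold change (TMM-scaled, ± SE) of 9 members in NP1-, NF1-, NF2- and PEP5-like neurons, Sprr1a+ neurons of CCI on the left and Sprr1a- neurons of CCI on the right, both against Sprr1a- neurons of sham. Filled points are called and dashed lines mark the fold limit of 0.5; on the left Mapk10 is filled in all 4 classes and Sarm1 is right of 0 in NP1-like and left of it in NF2-like neurons, and on the right no point is filled.

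The difference between classes was tested itself, as the interaction of class and state over NP1-, NF1- and NF2-like neurons in 1 fit. It had an adjusted p below 0.05 (edgeR quasi-likelihood F test) for 5 of the 9 members, where it did for 39.1% of 13062 genes. Sarm1 had the smallest (adjusted p = 4.86e-05), its change being lower by 1.19 in NF1-like and by 1.96 in NF2-like than in NP1-like neurons on the log2 scale. Nmnat2 followed (adjusted p = 6.23e-05), with a change that, relative to NP1-like neurons, was -0.27 for NF1-like neurons and 0.79 for NF2-like neurons. Map3k12 (adjusted p = 0.00146) differed most between NF1- and NP1-like neurons, by -1.15. For Map3k13 (adjusted p = 0.00691) the change was -1.54 for NF1-like and 0.06 for NF2-like neurons relative to NP1-like neurons, but without Female-Sham its adjusted p was 0.0806. Mapk8ip3 was at 0.0444, and at 0.144, 0.389 and 0.109 without Male-Sham, Female-Sham and Male-CCI. Mapk10 was at 0.111, and at 0.0188 without Female-CCI. The 3 sums of a library share its animals, so these p-values may be too small.

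In CPM scaled by total UMIs, the class means of Sarm1 lay closer together after injury than in sham. The Sprr1a- sham means of NP1-, PEP5-, NF1- and NF2-like neurons were 5.20, 16.4, 25 and 42.1 CPM, and the Sprr1a+ CCI means 10.9, 16.6, 20.7 and 20.6 CPM. CCI-ind-like neurons of the CCI libraries had 17.0 and 14.7 CPM of Sarm1. Among these 1268 and 1599 neurons were the 145 and 149 cells taken above as injured PEP5-like, and the class of the others before injury was not assigned. CCI-ind-like neurons had 44.1 and 44.9 CPM of Mapk10, 41.8 and 38.9 of Nmnat2 and 26.9 and 22.8 of Map3k12. For Mapk10 both values lie below those of all 10 named sham classes, but only slightly below the nearest, cLTMR-like neurons (46.2 and 46.9). Total UMI scaling put the median of all genes at -0.05, -0.32, -0.39 and -0.24 in injured NP1-, PEP5-, NF1- and NF2-like neurons. With TMM it was 0.01, -0.02, -0.06 and -0.01. Differences between sham and injured levels in this paragraph therefore depend on the scaling, and their order with TMM was not tested. These are descriptions, since Sprr1a and its companions helped to make the clusters.

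**Figure D4:**
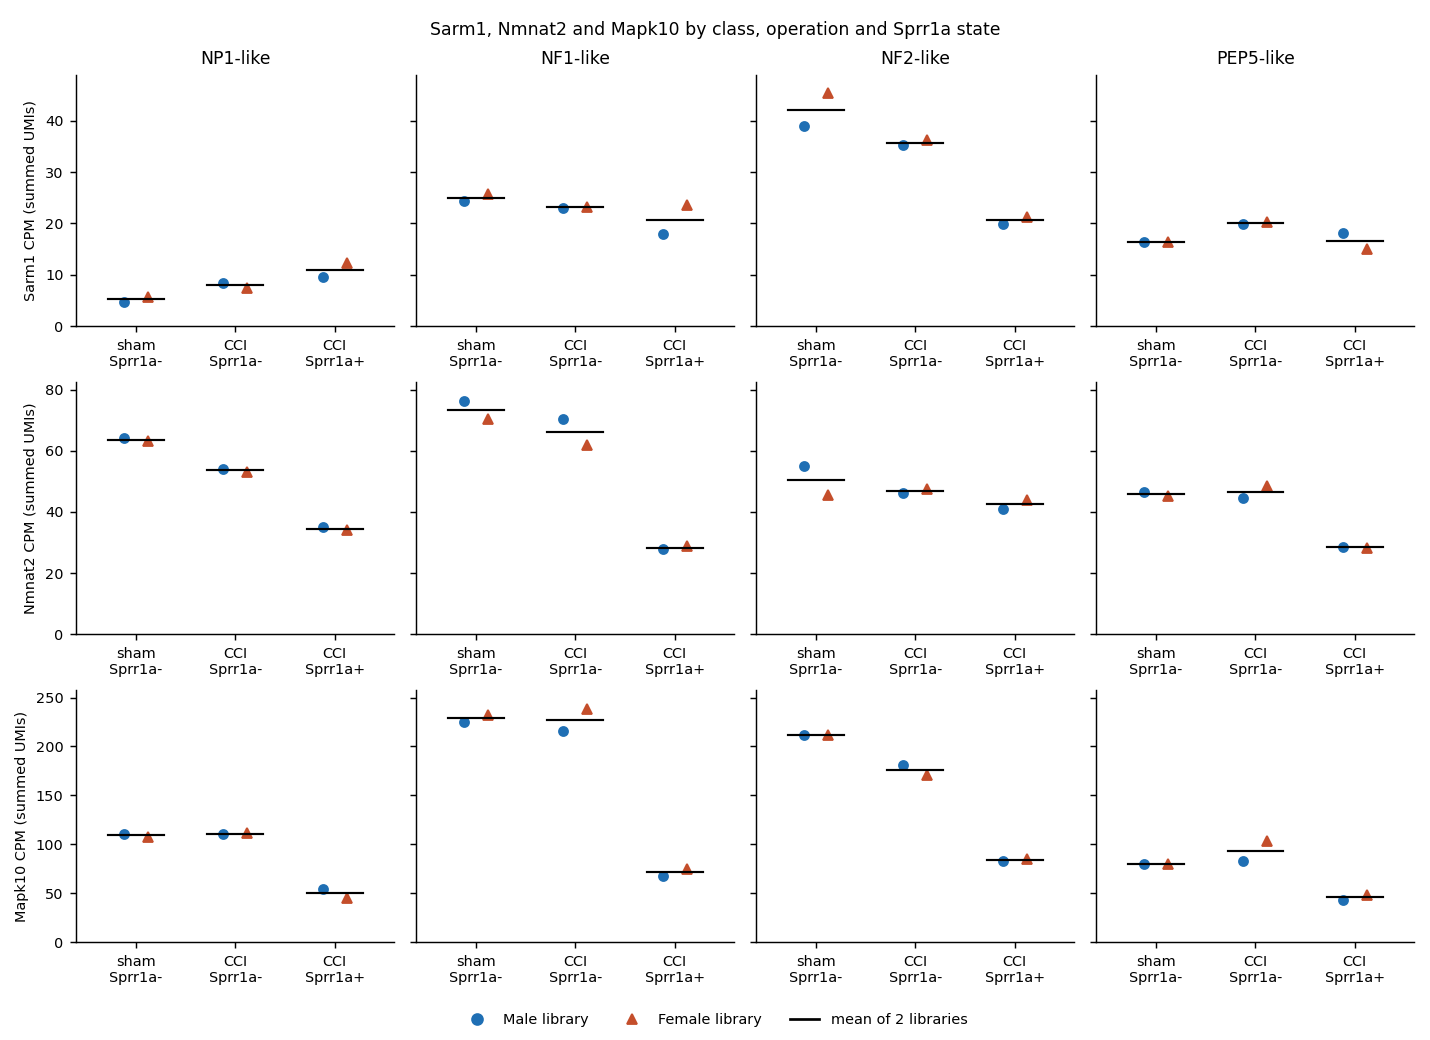
Level of Sarm1, Nmnat2 and Mapk10 (rows; CPM of summed UMIs, linear axes from 0 shared within a row) in NP1-, NF1-, NF2- and PEP5-like neurons (columns), for Sprr1a- neurons of sham and CCI and Sprr1a+ neurons of CCI, with circles for male, triangles for female libraries and lines at means of 2. The Sprr1a- groups differ by less than the fold limit except for Sarm1 in NP1-like neurons (5.20 against 7.94 CPM on average), and the Sprr1a+ group is lower for Mapk10 in each column and higher for Sarm1 in NP1-like neurons.

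Sprr1a- neurons of CCI were compared with Sprr1a- neurons of sham in all 10 classes. Of 89 pairs of a member and a class that could be tested, 0 were called by edgeR and 0 by DESeq2, where the share of all genes called was 3.97% in NP1-like, 4.47% in NP2-like, 2.56% in NP3-like, 5.19% in PEP1-like, 4.38% in PEP2-like, 3.57% in PEP3/4-like, 3.35% in PEP5-like, 1.12% in NF1-like, 1.93% in NF2-like and 1.72% in cLTMR-like neurons. Their log2 changes lay between -0.30 and 0.61 with a median of -0.01, and 14 of the 89 had an unadjusted p below 0.05. The highest was Sarm1 in NP1-like neurons, at 4.67 and 5.72 CPM in sham and 8.47 and 7.41 in CCI (18, 16, 15 and 13 UMIs), without overlap (0.61 ± 0.41, adjusted p = 0.446 by edgeR). This difference has the sign of the Sarm1 rise in injured NP1-like neurons and is set against the same sham cells. In 2 the adjusted p was below 0.05 under the fold limit, namely Mapk10 in PEP3/4-like neurons (0.21, adjusted p = 0.0303 by edgeR) and Map3k12 in cLTMR-like neurons (0.30, adjusted p = 0.0472). Mapk10 was higher in CCI in 9 of 10 classes, by at most 0.22, the exception being NF2-like neurons (211 and 212 against 181 and 171 CPM, -0.22). Nmnat2 was lower in 10 of 10 (-0.26 to -0.00066), while Sarm1 was higher in 8 of 10. The classes are sums of the same 4 libraries, so these counts are not independent repeats. The same sham libraries enter these fits and those of the injured neurons.

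The wider pathway was followed in 72 further genes of 7 lists. These lists were chosen with earlier results of these data known, so the counts below are descriptions and not tests of a list. Over all neurons 17 of the 71 tested rose and 7 fell with CCI, where 15.2% of all genes were called higher and 12.7% lower. The list that moved most was that of nuclear targets of DLK and JNK, of which 7 of 11 rose and 0 fell, with a median log2 change of 0.87 against -0.01 over all genes. Csf1, a cytokine that acts on microglia, went from 9.75 to 90.9 CPM on average (3.27 ± 0.10 on the log2 scale), Hrk, a pro-apoptotic gene, from 1.45 to 10.1 (2.84 ± 0.36), and Atf3, an injury transcription factor, from 146 to 726 (2.37 ± 0.11). The same list had 8 of 11 higher and 0 lower in Sprr1a+ against Sprr1a- neurons, and 6, 5, 8 and 8 higher with 1, 0, 0 and 1 lower in NP1-, NF1-, NF2- and PEP5-like injured neurons, where 21.1%, 21.7%, 21.3% and 22.4% of all genes were higher and 20.5%, 23.8%, 22.4% and 24% lower. In sham NF-like neurons 6 of the 11 were lower and 1 higher than in the other classes, where 23.6% of all genes were lower.

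The other lists split. Of 12 genes of axon degeneration and cell death, 3 rose and 1 fell over all neurons, with the effector caspase Casp6 (1.79 to 6.95 CPM, 2.01 ± 0.10) and the apoptosome gene Apaf1 (0.62 ± 0.10) among those that rose. Of 16 other kinases of the JNK cascade, 2 rose and 2 fell, with the MAP4 kinases Tnik (29.8 to 131 CPM, 2.19 ± 0.05) and Map4k4 (64.1 to 100.1 CPM, 0.70 ± 0.05) higher and Map2k6 (2.09 to 0.884 CPM, -1.18 ± 0.13) among those lower. Both kinases have been placed upstream of DLK in neurons. Of 15 genes of NAD+ synthesis and use, 1 was called higher and 3 lower. The one called higher was Cd38, which consumes NAD+, at 0.0334 CPM in sham and 0.0901 in CCI on average (1.44 ± 0.49). These levels are close to the 0.0158 to 0.0188 CPM that a count of 3 UMIs makes in these libraries. Only the CCI libraries met the filter on low counts for Cd38, so its call cannot serve as a test of a rise. Among those that fell were the mitochondrial deacetylase Sirt3 (61.7 to 39.1 CPM, -0.60 ± 0.04) and Qprt of NAD+ synthesis (1.18 to 0.765 CPM, -0.57 ± 0.18).

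Of 7 genes of NMNAT2 and DLK turnover, Stmn2, whose protein shares the fast turnover of NMNAT2 in axons, rose from 3555 to 6416 CPM (0.91 ± 0.04), and Skp1a, which belongs to the ubiquitin ligase that removes NMNAT2 and DLK, fell from 778 to 429.7 CPM (-0.80 ± 0.08). Skp1a fell in injured NP1-like (-2.41), NF2-like (-0.55) and PEP5-like neurons (-0.64) and rose in NF1-like neurons (1.04). Of 5 JNK scaffolds 1 rose, Sh3rf1 (0.70 ± 0.08), and of 5 JNK phosphatases 2 rose, Dusp10 (0.73 ± 0.12) and Dusp1 (0.56 ± 0.17).

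Over the 40 sums of the 10 named classes and 4 libraries, the genes most like Sarm1 among 8341 compared were Gfpt1 and Necap1 (Pearson r of 0.885 and 0.870 on log2(CPM + 5)). For Map3k12 they were Gtf2i, Ppp3cb and Mprip (0.924, 0.913 and 0.910), and for Nmnat2 they were Ogfrl1, Wdfy3 and Socs5, at lower values (0.736, 0.698 and 0.673). The sums of a class share their cells' type and those of a library its depth, so these values are descriptions.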

How the data were processed

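Counts were read from the 4 matrices the authors deposited, which hold raw UMI counts per gene and cell without normalization. The submitters' notes name Cell Ranger 2.1.1, Seurat and mm10, and the matrix headers a pipeline version of 3.0.2. Cells with at least 1500 genes and at most 10% mitochondrial UMIs were kept. Automatic doublet calls did not work (2, 121, 0 and 0 cells), so in each library the cells with the highest Scrublet scores (scanpy 1.11.5) were removed, as many as the study removed.

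Cells were integrated and clustered with Seurat 5.3.0 (3000 variable genes, 20 principal components, resolution 0.8; 0.4 for PEP5-like neurons), giving 30 clusters. Clusters were named where at least 3 fixed markers were found in 10% or more of the cells at 2 times or more the level of all others. UMIs were summed per library, class and Sprr1a state. The sums were tested with edgeR 4.0.16 (robust quasi-likelihood, TMM, filterByExpr), fitted over all genes that passed the filter, as was an F test of class by state, and called at an adjusted p below 0.05 with an absolute log2 change above 0.5. Sums had to hold at least 10 cells. The code was tested on simulated data. The neurons of a library held 159902783 to 189489772 UMIs in all, and 3 UMIs, or 0.0158 to 0.0188 CPM, was taken as the floor.

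The members and the 7 lists of 72 genes were chosen with earlier results of these data known. From each list the 3 genes with the largest absolute change over all neurons, among those called and changed alike in both sexes, were named, with all members and the 3 genes most like Sarm1, Nmnat2 and Map3k12 (mean of at least 10 CPM); 2 of the genes so chosen are not reported here.

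Alternatives were DESeq2 1.42.0, total UMI scaling, no filter on low counts, sex or library as a replicate block, leaving out each library, resolutions 0.4 and 1.2, pathway genes left out of clustering, doublets kept, other Sprr1a limits, at least 3000 genes, at most 5% mitochondrial UMIs and, added after the data were seen, the largest NP1- or NF1-like cluster alone. Promoters were taken from RefSeq (GRCm38.p6), where all 10 members matched, and gene positions from GENCODE on GRCm38. Proteins were not used here.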

Additional observations from a re-analysis of the deposited data

Results flagged for a closer look

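In 5 genes the change between Sprr1a- sham and Sprr1a+ CCI neurons differed between NP1-, NF1- and NF2-like neurons by a test of that difference (edgeR, adjusted p). For Sarm1 the adjusted p was 4.86e-05, with a rise in NP1-like neurons, a fall in NF2-like neurons and a log2 change of -0.00 in NF1-like neurons. For Nmnat2 it was 6.23e-05, with falls in NP1- and NF1-like neurons and a change of -0.02 in NF2-like neurons. For Map3k12 it was 0.00146, with falls in NF1- and NF2-like neurons and a change of -0.16 in NP1-like neurons. For Map3k13 it was 0.00691, with a call in NF1-like neurons alone of these 3 classes, and for Mapk8ip3 it was 0.0444, with a call in 0 of them. The share of all genes with such a difference was 39.1%. The results for Map3k13 and Mapk8ip3 depended on single libraries, as given above. Sums of a library share its animals, so these p-values may be too small.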

How the results depend on the processing

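Under settings other than leaving out a library, 688 of the members' values kept their direction and side of the threshold. Of the rest, 18 were no longer called, 15 became called and 10 changed sign. Values of the class by state test have no direction and were counted by the threshold alone. Some settings left the sums of a comparison as they were, so that its values could not change. Among them were resolutions 0.4 and 1.2 in NP1- and NF1-like neurons, and pathway genes left out of clustering over all neurons. With 1 library left out, 6 values changed sign. With any Sprr1a UMI taken as Sprr1a+, members called went from 3 to 1 in Sprr1a+ against Sprr1a- neurons (genes 7401 to 4761), from 7 to 2 in NF1-like (genes 5505 to 2290), from 4 to 2 in NF2-like and from 3 to 1 in PEP5-like neurons, with Mapk10 at -0.42 in the first and -0.41 in NF1-like neurons, and genes called over the 10 Sprr1a- classes from 3923 to 2062. DESeq2 called 1 member in PEP5-like neurons and 1856 genes over the Sprr1a- classes, and at most 5% mitochondrial UMIs left 1 member in PEP5-like neurons. Total UMI scaling called 5 members in Sprr1a+ against Sprr1a- neurons, 6 in PEP5-like neurons and 8 in the class by state test. The cause was not tested.

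Leaving out 1 library gave 1 to 1 members and 4194 to 4513 genes over all neurons, 3 to 4 and 4282 to 4895 in NP1-like, 6 to 7 and 4309 to 5351 in NF1-like, 3 to 5 and 4095 to 5493 in NF2-like, 2 to 3 and 5366 to 5689 in PEP5-like neurons, 0 to 0 and 2966 to 5108 in the Sprr1a- classes, and 3 to 6 and 3094 to 4514 in the class by state test (main 5 and 5104). In such fits the lone library is assumed to vary like the others. Within the CCI libraries and within sham, leaving out a library left no residual degrees of freedom, so only values were had.

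The log2 values that changed sign were all uncalled. With total UMI scaling they were Nmnat1 at -0.14 in Sprr1a+ against Sprr1a- neurons and at -0.010 in PEP5-like neurons, and Mapk8ip3 at -0.17 in PEP5-like neurons. Sarm1 in NF1-like neurons was 0.050 with DESeq2 and 0.012 with at least 3000 genes, and -0.095 to 0.21 with 1 library left out. Nmnat2 in NF2-like neurons was 0.00056 with DESeq2, 0.0056 with Sprr1a above 2 and 0.00072 with at most 5% mitochondrial UMIs, and -0.15 to 0.12 with 1 library left out. Mapk8ip3 in NP1-like neurons was 3.9e-05 with any Sprr1a UMI and -0.091 to 0.0063 with 1 library left out, when Nmnat1 was -0.045 to 0.10 in Sprr1a+ against Sprr1a- neurons and -0.71 to 0.13 in NF2-like neurons.

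The replicate number stands for the sex of the pool and links no animals. With sex as a replicate block, Sarm1 in NF1-like neurons was 0.016, and no member gained or lost a call over all neurons, in the 4 injured classes or in Sprr1a- neurons; in the last, genes called went from 3923 to 5568. Without the library block, Sprr1a+ against Sprr1a- neurons kept 3 members called (7306 genes) and NF-like against other sham neurons 6 (7304 genes), and with a library block the class by state test gained Map2k4 (adjusted p = 0.0263 by edgeR). NF1-like neurons with at most 5% mitochondrial UMIs numbered under 10 in a library and gave no value. The same held for the largest NP1-like cluster alone. Nmnat3 did not pass the filter on low counts within classes.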
